A study of Mus musculus with 31 samples.

Results

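The genes described here are 47 mouse genes with very long coding sequences, about 7 kb or longer, that are expressed in cortex. The list rests on coding length and on expression in cortex, with no rule on differences between genotypes. It was drawn up with earlier results of these data known, and whether it holds all such genes was not checked. Coding lengths were not used here, so the length rule itself was not checked. All 47 were among the 20436 genes of the count tables, and all 47 passed the filter on low counts in mRNA (14215 genes tested), in footprints (13953) and in translational efficiency (13654). Whole cortex was taken from mice at postnatal days 29 to 34. The 4 genotypes were wild type (WT), mice lacking Fmr1 (FXS), mice lacking Rps6kb1, which encodes the kinase S6K1 (S6K1), and mice lacking both genes (DKO). The labels give no strain, sex or allele, and they do not say whether each library is a separate animal, so p-values measure the spread between libraries. Ribosome profiling sequences the mRNA pieces that ribosomes shield from nuclease (footprints), and polyA mRNA sequencing measures the messages themselves. There were 16 mRNA libraries, 4 of each genotype, and 15 footprint libraries, with 4 from WT, 5 from FXS, 3 from S6K1 and 3 from DKO mice.

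A ribosome needs longer to cross a long coding sequence, so a long message can carry many ribosomes, and its footprint count reflects both how often translation starts and how fast ribosomes move. The protein missing in FXS, FMRP, is an RNA-binding protein found on polyribosomes, and many long neuronal messages are known among the RNAs it binds. S6K1 is a kinase downstream of mTOR that phosphorylates ribosomal protein S6. The comparison asks whether long messages carry fewer ribosomes per mRNA when Fmr1 is lost, and whether the additional loss of Rps6kb1 moves them back. Translational efficiency (TE) is the footprint level divided by the mRNA level of the same gene, so a length factor common to both assays cancels out of it. An effect of length that differs between the assays would not cancel.

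By role the list held 10 cytoskeletal linkers, scaffolds and motors (Macf1, Dst, Syne1, Ank2, Ank3, Utrn, Dmd, Sptbn1, Sptan1 and Dync1h1) and 8 enzymes that attach or remove ubiquitin (Huwe1, Herc1, Herc2, Mycbp2, Ubr4, Birc6, Usp34 and Usp9x). Another 13 encode adhesion or extracellular proteins, namely the cadherins Fat1, Fat3, Fat4, Celsr2 and Celsr3, the teneurins Tenm1, Tenm2, Tenm3 and Tenm4, the secreted protein Reln, and Csmd1, Csmd2 and Csmd3. The 4 VPS13 genes (Vps13a, Vps13b, Vps13c and Vps13d) encode lipid transfer proteins, Ryr2, Ryr3 and Pkd1 encode channels or channel partners, and Nbea, Lrba and Wdfy3 encode BEACH-domain proteins of membrane traffic and autophagy. The others were the presynaptic active zone scaffolds Bsn and Pclo, the endocytic receptors Lrp1 and Lrp1b, and the large scaffolds Htt and Trrap. As genes they are long too. Their genomic spans in RefSeq on GRCm38.p6 ran from 25.2 kb (Celsr2) to 2390 kb (Dmd), with a median of 324 kb against 25.2 kb over all tested genes, and 4 lie on the X chromosome.

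RefSeq promoter sequences were matched for 36 of the 47 genes. Of the 7 genes whose mRNA was called different in DKO against WT, 4 are shown with the 250 bases before a transcript start, Celsr2 and Bsn (higher) and Fat3 and Ryr2 (lower). Ryr3 and Vps13c were not matched, and the window of Macf1 lies well inside the annotated gene and is not shown. Capitals mark each CG dinucleotide, read on the strand of the gene, and the build is GRCm38.p6. The windows lie at chr3:108415580-108415829 (minus strand), chr9:108190384-108190633 (minus strand), chr9:16502055-16502304 (minus strand) and chr13:12106946-12107195 (minus strand). Each window ends next to its transcript start. That start is the outermost annotated start for Ryr2, and lies 36, 490 and 627 bases inside the outermost start for Bsn, Celsr2 and Fat3. The whole windows of Celsr2 and Fat3 therefore also lie inside the annotated gene, near its start.
Celsr2: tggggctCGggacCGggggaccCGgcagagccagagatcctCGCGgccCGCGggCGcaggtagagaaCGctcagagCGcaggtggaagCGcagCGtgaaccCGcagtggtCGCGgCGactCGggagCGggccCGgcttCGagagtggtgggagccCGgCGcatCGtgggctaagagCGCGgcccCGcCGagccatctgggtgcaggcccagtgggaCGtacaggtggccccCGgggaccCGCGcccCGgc
Bsn: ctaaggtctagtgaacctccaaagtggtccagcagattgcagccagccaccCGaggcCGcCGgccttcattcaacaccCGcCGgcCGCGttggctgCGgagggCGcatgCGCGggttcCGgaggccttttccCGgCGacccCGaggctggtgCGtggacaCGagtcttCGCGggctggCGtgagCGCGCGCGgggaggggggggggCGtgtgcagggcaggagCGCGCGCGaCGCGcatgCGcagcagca
Fat3: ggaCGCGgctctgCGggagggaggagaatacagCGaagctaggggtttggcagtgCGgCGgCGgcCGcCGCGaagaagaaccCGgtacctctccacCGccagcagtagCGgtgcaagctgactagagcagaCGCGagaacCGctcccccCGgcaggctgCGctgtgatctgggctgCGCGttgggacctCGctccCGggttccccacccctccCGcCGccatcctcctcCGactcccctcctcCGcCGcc
Ryr2: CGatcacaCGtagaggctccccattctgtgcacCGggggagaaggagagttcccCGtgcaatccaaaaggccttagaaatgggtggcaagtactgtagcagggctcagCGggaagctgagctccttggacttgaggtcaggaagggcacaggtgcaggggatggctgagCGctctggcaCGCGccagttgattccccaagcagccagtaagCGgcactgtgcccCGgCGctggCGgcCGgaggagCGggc
The windows of Celsr2 and Bsn hold 32 CG dinucleotides each, a number reached by 4.58% of all 32851 RefSeq promoter windows of this length. That of Fat3 holds 27, reached by 8.56%, and that of Ryr2 holds 14, reached by 29.4%. Over the 47 windows that match the 36 genes, the median was 17 CG dinucleotides and 60.0% G or C, against 6 and 52.4% over all windows. Some genes have several windows.

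Library totals ran from 12.1 to 17.3 M counts in mRNA and from 16.6 to 34.9 M in footprints. The 47 genes took 0.816% to 1.11% of an mRNA library and 1.27% to 2.08% of a footprint library, with 95% exact binomial (Clopper-Pearson) intervals at most 0.0130 percentage points wide (counting error only). No library had fewer than 204 mRNA counts or 163 footprint counts for any of the 47, so their errors come from differences between libraries. Fmr1 changed by -2.05 ± 0.116 in FXS mRNA and by -3.88 ± 0.103 in FXS footprints, and Rps6kb1 by -0.47 ± 0.0774 in S6K1 mRNA and by -1.63 ± 0.137 in S6K1 footprints (log2, SE). In DKO footprints they changed by -3.69 ± 0.132 and -1.44 ± 0.129. These directions are those of the labels. Markers of excitatory and inhibitory neurons and of glia were present in every library, as in whole cortex. In such bulk tissue, fewer cells of a type and less RNA per cell cannot be told apart.

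The batch numbers in the labels moved with the level of these genes, above all in footprints. The WT footprint library of batch 2 (WT replicate 1) held the largest share of counts on the 47 genes, 2.08%, and stood apart for several of them. Macf1, for example, had 277, 119, 80.6 and 79.1 footprint CPM in the WT libraries. Footprint batch 1 held S6K1 and DKO libraries and no WT or FXS library. Every main fit therefore carried batch as a term, and mRNA and footprint medians within batches are given beside the results. mRNA batches 5 to 8 held each genotype once.

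**Figure D1:**
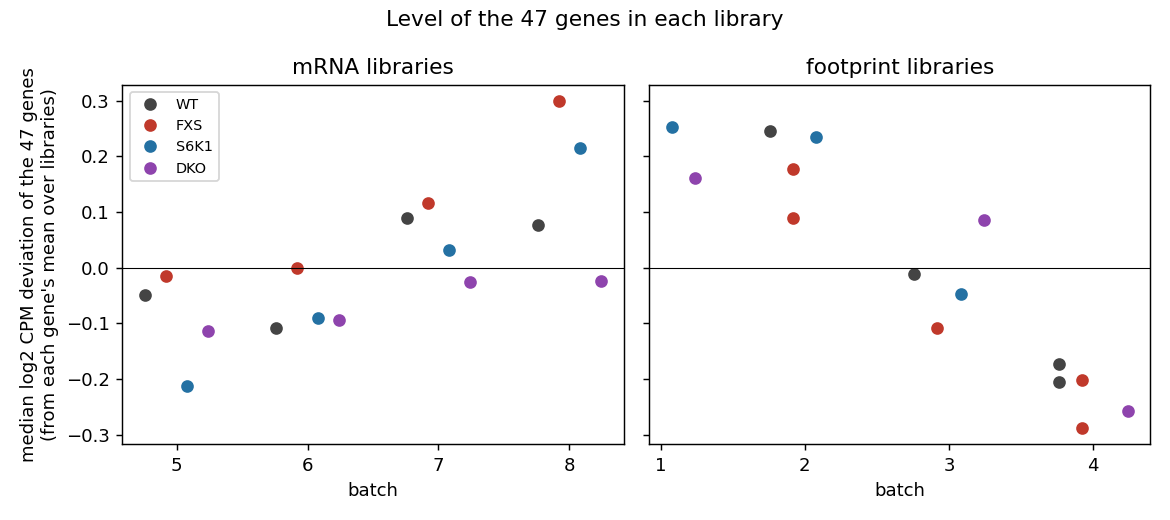
Median log2 CPM deviation of the 47 genes in each library from each gene's mean over the libraries of that assay (vertical axis), by batch (horizontal axis), with 1 point per library coloured by genotype. In mRNA the FXS library was the highest of the 4 in each batch, and in footprints the libraries of batch 4 stood below those of batches 1 and 2.

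In WT cortex these messages were well occupied for their abundance. The median TE of the 47 genes was 0.71 on the log2 scale of footprint CPM over mRNA CPM, against -0.35 over all tested genes, and 40 of the 47 lay above the latter. TE here is a difference of mean log2 CPM over libraries with no batch adjustment. Any effect of length that differs between the assays remains in it and was not tested. The highest were Usp9x, a deubiquitinase, at 2.48 ± 0.11 (SE), Dync1h1, the heavy chain of cytoplasmic dynein, at 1.92 ± 0.27, and Nbea at 1.62 ± 0.12. The lowest were Pkd1 at -3.18 ± 0.27, Celsr3 at -2.76 ± 0.30 and Ryr3 at -1.68 ± 0.31. Some relatives stood far apart and others close. Celsr2 and Celsr3, adhesion cadherins of axon guidance, stood at 0.86 and -2.76, and the calcium release channels Ryr2 and Ryr3 at 0.90 and -1.68. Macf1 (-1.66) and Dst (-1.60), which link actin to microtubules, were both low and next to each other in the order, closer than their errors. Vps13a, Vps13b and Vps13c stood at 1.32, 1.13 and 1.36, and Vps13d at 0.25. The order of neighbours in general does not exceed these errors, and 38, 42 and 41 of the 47 lay above the median of all genes in FXS, S6K1 and DKO.

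**Figure D2:**
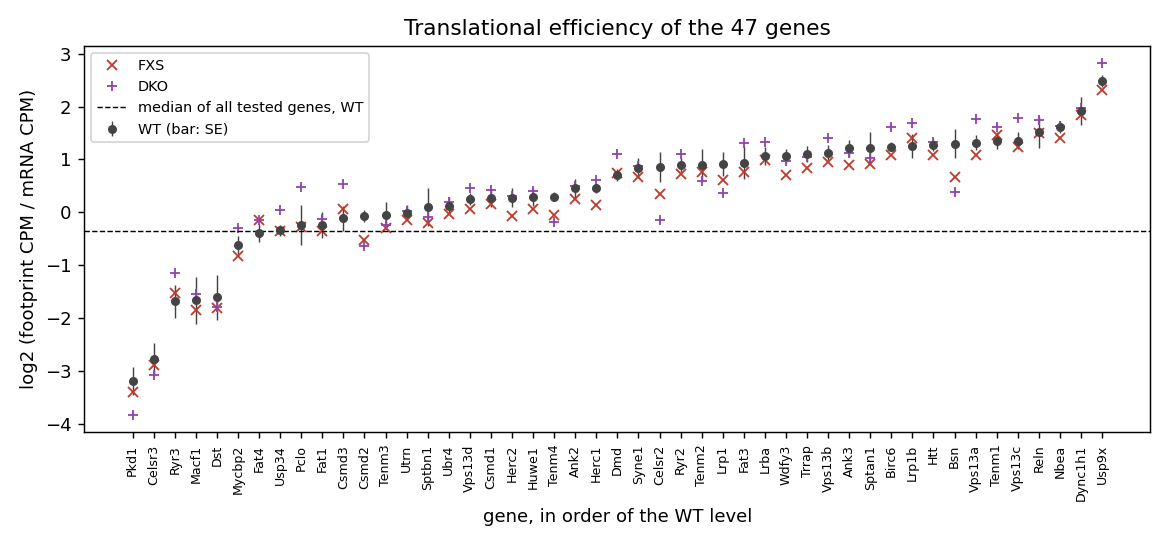
TE of each of the 47 genes (log2 footprint CPM over mRNA CPM, no batch adjustment) in WT (points with SE), FXS (crosses) and DKO (plus signs), in order of the WT level. Of the 47 genes, 40 lie above the WT median of all tested genes (dashed, -0.35), and Pkd1, Celsr3, Ryr3, Macf1 and Dst form the low end.

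FXS against WT asks whether the loss of Fmr1 lowers ribosome occupancy of long messages. The mRNA of these genes stood slightly higher and their footprints slightly lower in FXS, so that TE stood lower, but no single gene passed the adjusted threshold. The median log2 fold change over the 47 was 0.11 in mRNA (-0.01 over all tested genes), -0.11 in footprints (-0.00) and -0.22 in TE (-0.01). The estimate was above 0 for 40 genes in mRNA, and below 0 for 41 in footprints and 41 in TE. Of all tested genes, 47.9% were above 0 in mRNA, 49.7% in footprints and 47.7% in TE. The 47 genes share the same libraries, so their signs are not separate results. In 36 genes mRNA stood higher and footprints lower, and in 22 of the 47 the mRNA part was the larger.

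With edgeR's quasi-likelihood test, 0 of the 47 were called at an adjusted p under 0.05 in mRNA, against 0.155% of all tested genes, 0 in footprints (0.165%) and 0 in TE (0.0952%). At an unadjusted p under 0.05, 13 were higher and 0 lower in mRNA, against 6.77% and 5.95% of all tested genes. In footprints 0 were higher (4.09%) and 13 lower (5.78%), and in TE 0 were higher (5.66%) and 23 lower (7.70%). DESeq2 called 6 in mRNA, 1 in footprints and 4 in TE, against 2.97%, 0.788% and 1.92% of all genes with an adjusted p. In counts simulated for this comparison, a true log2 change of 0.25 was called for 13.4% of changed genes in mRNA. A change of that size, near many estimates here, was called for 4.48% in footprints and 4.58% in TE. One of 0.5 was called for 68.7%, 65.7% and 38.1%. The changed genes were drawn from all tested genes, and the simulated counts had no batch effect. These shares are therefore not the power for the 47 genes, which was not measured. The unadjusted counts fell to 6, 1 and 2 without the batch term, and without WT footprint replicate 1 those of footprints and TE were 8 and 13, with a median TE difference of -0.18. Over all tested genes the adjusted calls without the batch term were 2, 1 and 1 in mRNA, footprints and TE, against 22, 23 and 13 with it.

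Within single batches the direction of the medians was the same. In mRNA the median of the 47 was 0.07, 0.16, 0.06 and 0.20 higher in FXS than in WT in batches 5, 6, 7 and 8, with 34, 32, 31 and 47 genes above 0. In footprints it was -0.21, -0.09 and -0.05 in batches 2, 3 and 4, with 37, 31 and 31 genes below 0. The footprint difference was thus widest in the batch that holds WT replicate 1.

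**Figure D3:**
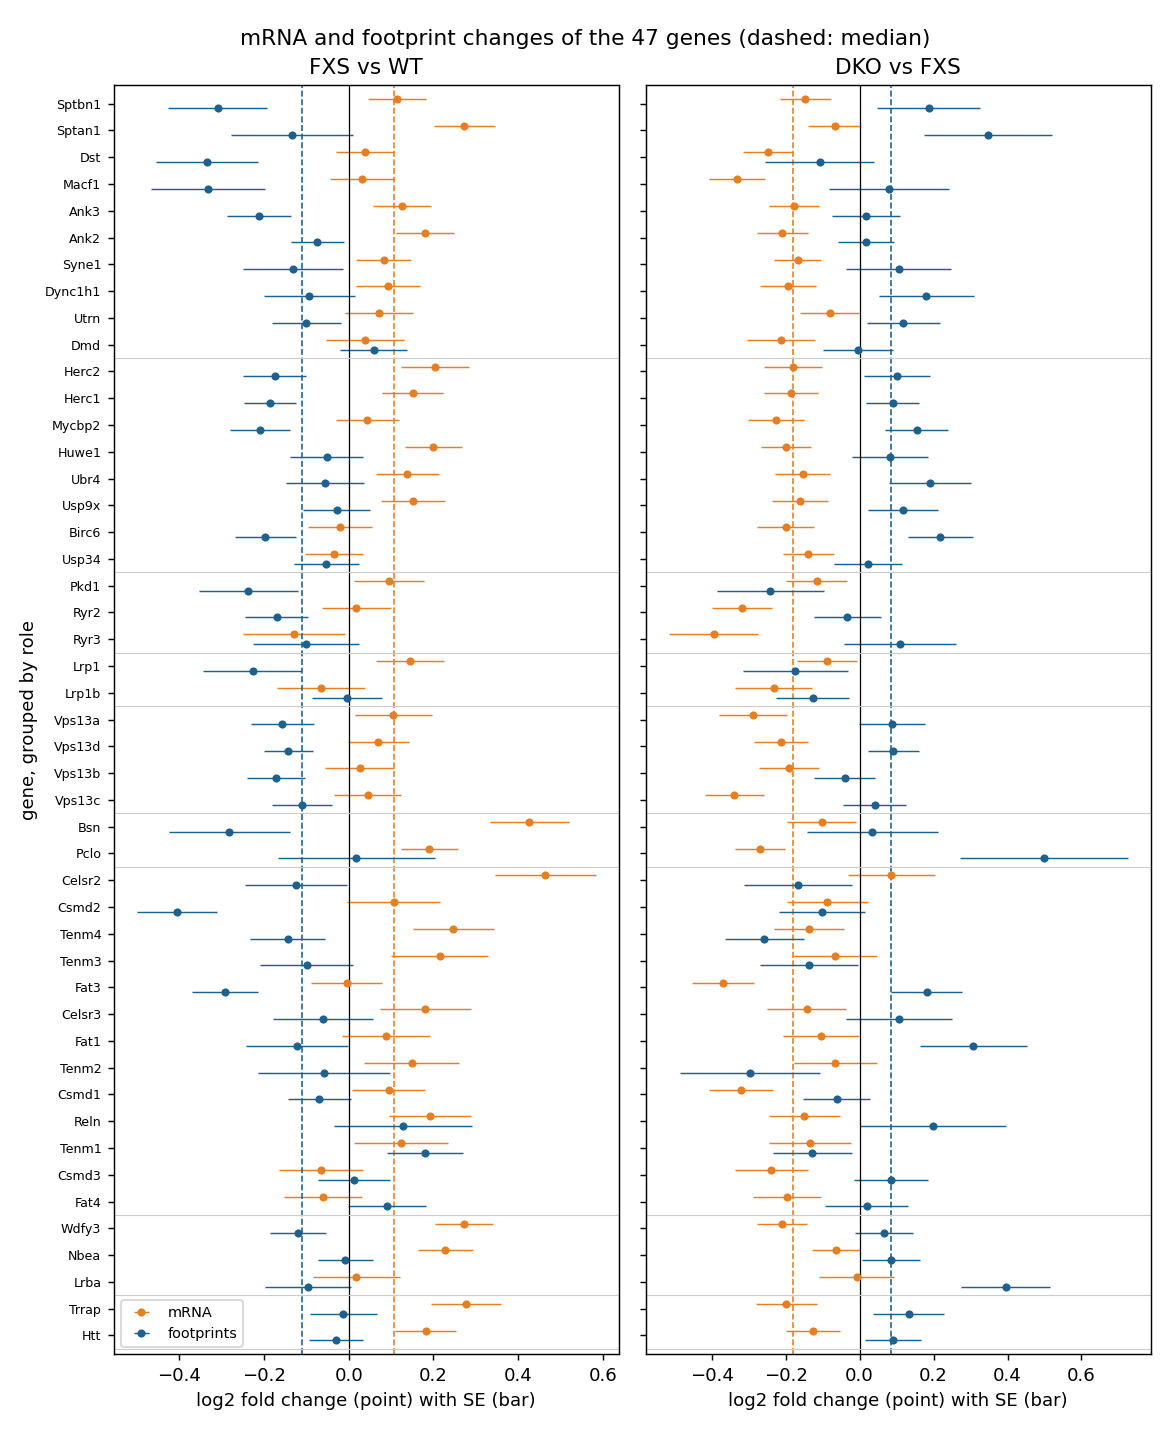
Log2 fold change in mRNA (orange) and footprints (blue) of each of the 47 genes, with SE as bars, for FXS against WT (left) and DKO against FXS (right), grouped by role. Dashed lines mark the medians, 0.11 in mRNA and -0.11 in footprints on the left, and -0.18 and 0.08 on the right, and both panels share the FXS libraries.

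The active zone scaffold Bsn and the cadherin Celsr2 had the largest mRNA estimates. Bsn mRNA stood at 126, 145, 167 and 222 CPM in the WT libraries, 175, 215, 242 and 248 in FXS, 134, 183, 169 and 235 in S6K1 and 185, 191, 233 and 202 in DKO. Libraries are given in the order of batches 5 to 8, and in each batch the FXS value was above the WT value, though the groups overlap across batches. The difference was 0.43 ± 0.0940 (SE, adjusted p 0.0606) in mRNA, -0.28 ± 0.143 (SE, adjusted p 0.560) in footprints and -0.72 ± 0.187 (SE, adjusted p 0.141) in TE. Bsn footprints stood at 599, 333, 340.0 and 376 CPM in the WT libraries, 423, 591, 182, 381 and 301 in FXS, 262, 527 and 325 in S6K1 and 229.9, 273 and 294 in DKO. WT replicate 1, FXS replicate 2 and S6K1 replicate 2, all of batch 2, were high and FXS replicate 3 was low. Pclo, its partner at the active zone, differed by 0.19 ± 0.0671 (SE) in mRNA and by 0.02 ± 0.186 (SE) in footprints.

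Celsr2 mRNA stood at 92.5, 153, 176 and 187 CPM in the WT libraries, 127, 242, 252 and 217 in FXS, 82.1, 203, 194 and 274 in S6K1 and 129, 262, 268 and 235 in DKO. The first value of each genotype, from batch 5, was the lowest, and in every batch FXS and DKO were above WT. Celsr2 mRNA differed by 0.46 ± 0.119 (SE, adjusted p 0.127) in FXS, with footprints at -0.12 ± 0.120 (SE) and TE at -0.60 ± 0.184 (SE, adjusted p 0.210). Of the other adhesion and extracellular genes, only Tenm4, a teneurin, was at an unadjusted p under 0.05 in mRNA (0.25 ± 0.0961 (SE)).

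Among BEACH-domain genes, Wdfy3, which encodes an adaptor of selective autophagy, had the smallest p of the 47 in TE. Wdfy3 mRNA stood at 113, 106, 124 and 134 CPM in the WT libraries, 139, 134, 134 and 170.2 in FXS, 109, 111, 124 and 159 in S6K1 and 121, 115, 127 and 134 in DKO. The groups of WT and FXS nearly separate, and FXS replicate 4 was the highest of all. Wdfy3 differed by 0.27 ± 0.0676 (SE, adjusted p 0.0842) in mRNA, -0.12 ± 0.0655 (SE, adjusted p 0.576) in footprints and -0.40 ± 0.0936 (SE, adjusted p 0.0890) in TE. Nbea, which encodes neurobeachin, a protein of synaptic receptor traffic, differed by 0.23 ± 0.0654 (SE) in mRNA and -0.24 ± 0.0924 (SE) in TE, and Lrba by 0.02 and -0.12.

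Footprints differed most for Csmd2, a transmembrane protein with CUB and sushi domains. Csmd2 footprints stood at 73.8, 71.0, 56.4 and 61.7 CPM in the WT libraries, 59.7, 60.1, 40.4, 54.0 and 43.4 in FXS, 60.7, 74.4 and 66.3 in S6K1 and 48.9, 42.8 and 42.5 in DKO. All 3 DKO libraries lay below all 4 WT libraries, while FXS overlapped WT. Its mRNA differed by only 0.11 ± 0.110 (SE) in FXS, and its footprints by -0.41 ± 0.0951 (SE, adjusted p 0.134). Within batches 2, 3 and 4 the Csmd2 footprint difference was -0.30, -0.81 and -0.29. The relatives Csmd1 (-0.07) and Csmd3 (0.01) differed less, and no test compared them.

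Fat3, an atypical cadherin of neuronal morphogenesis, had the next smallest p in footprints, behind Dst (-0.33), Macf1 (-0.33) and Sptbn1 (-0.31) in size. Fat3 footprints stood at 215, 133, 99.8 and 96.6 CPM in the WT libraries, 145, 161, 113, 95.7 and 77.2 in FXS, 212, 216 and 155 in S6K1 and 184, 134 and 88.5 in DKO. The WT and FXS ranges overlap, and batches 1 and 2 gave the high values in each genotype. Fat3 differed by -0.29 ± 0.0781 (SE, adjusted p 0.196) in FXS footprints, with no difference in mRNA beyond its error (-0.01 ± 0.0832 (SE)). Tenm1 had the largest footprint estimate above 0 (0.18 ± 0.0897 (SE)).

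Enzymes of the ubiquitin system had footprint estimates below 0 in all 8 cases, 4 of them at an unadjusted p under 0.05 (Herc1, Mycbp2, Birc6 and Herc2). Herc1, a giant HECT-type ligase, gave the third smallest p. Herc1 footprints stood at 422, 387, 372 and 397 CPM in the WT libraries, 352, 384, 367, 337 and 317 in FXS, 549.6, 362 and 345 in S6K1 and 542, 399.5 and 349 in DKO. The FXS libraries lay between 317 and 384 CPM and the WT libraries between 372 and 422, so the groups overlap little. Herc1 differed by -0.19 ± 0.0604 (SE, adjusted p 0.299) in footprints and -0.34 ± 0.0969 (SE, adjusted p 0.154) in TE. The deubiquitinase Usp9x was nearest to 0, at -0.03, with Huwe1 and Usp34 at -0.05 each.

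Cytoskeletal genes had mRNA estimates above 0 in 10 of 10 cases and footprint estimates below 0 in 9, Dmd being the exception. TE was lower at an unadjusted p under 0.05 for 6 of the 10, among them the spectrins Sptbn1 (-0.43 ± 0.142 (SE)) and Sptan1 (-0.42 ± 0.169 (SE)), which form the membrane skeleton, and the ankyrins Ank2 (-0.26) and Ank3 (-0.35), which anchor membrane proteins to it. Sptan1 mRNA stood at 969.8, 774, 882 and 939 CPM in WT and 1043, 1054, 1118 and 1070.3 in FXS, and the groups do not overlap. It differed by 0.27 ± 0.0711 (SE, adjusted p 0.102), and its estimate was 0.20 without FXS replicate 2 and 0.32 without FXS replicate 1.

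In the remaining classes, all 4 VPS13 genes had TE estimates below 0, from -0.27 for Vps13a to -0.16 for Vps13c. Ryr2 footprints differed by -0.17 ± 0.0742 (SE), while Ryr3, whose mRNA estimate was the lowest of the 47 at -0.13 ± 0.120 (SE), had a TE difference of 0.02. Pkd1 TE differed by -0.34 ± 0.145 (SE). Lrp1 stood at -0.38 and Lrp1b at 0.05 in TE. Htt and Trrap, a scaffold of histone acetyltransferase complexes, had mRNA estimates of 0.18 and 0.28 and TE estimates of -0.22 and -0.30, all 4 at an unadjusted p under 0.05.

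Marker genes of cell types were measured alongside. Oligodendrocyte markers (10 of 10 tested, none at 0) summed to 2850 to 4124 footprint CPM in the WT libraries and 1824 to 2747 in the FXS libraries, with 3 of the 10 called lower, while their mRNA sums overlapped (1948 to 3090 and 1808 to 2828). Excitatory neuron markers (6 of 6 tested, none at 0) had median differences of 0.16 in mRNA, -0.17 in footprints and -0.33 in TE, with 0 of 6 called in any of these. Their mRNA sums were 3407 to 4641 CPM in WT and 3620 to 5149 in FXS. Of 11 marker lists, the widest median shifts in mRNA were those of choroid plexus (-0.70), blood (-0.58) and thalamus (-0.43), with 0 called. Their mRNA sums were 10.4 to 590.0 CPM in WT and 6.99 to 221 in FXS for choroid plexus, 1169 to 1780 and 387 to 1701 for blood, and 18.6 to 62.3 and 18.4 to 25.6 for thalamus. Of the inhibitory neuron markers 1 of 6 was called lower in mRNA, at a list median of 0.03. The part of cell composition in the values of the long genes was not tested.

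**Figure D4:**
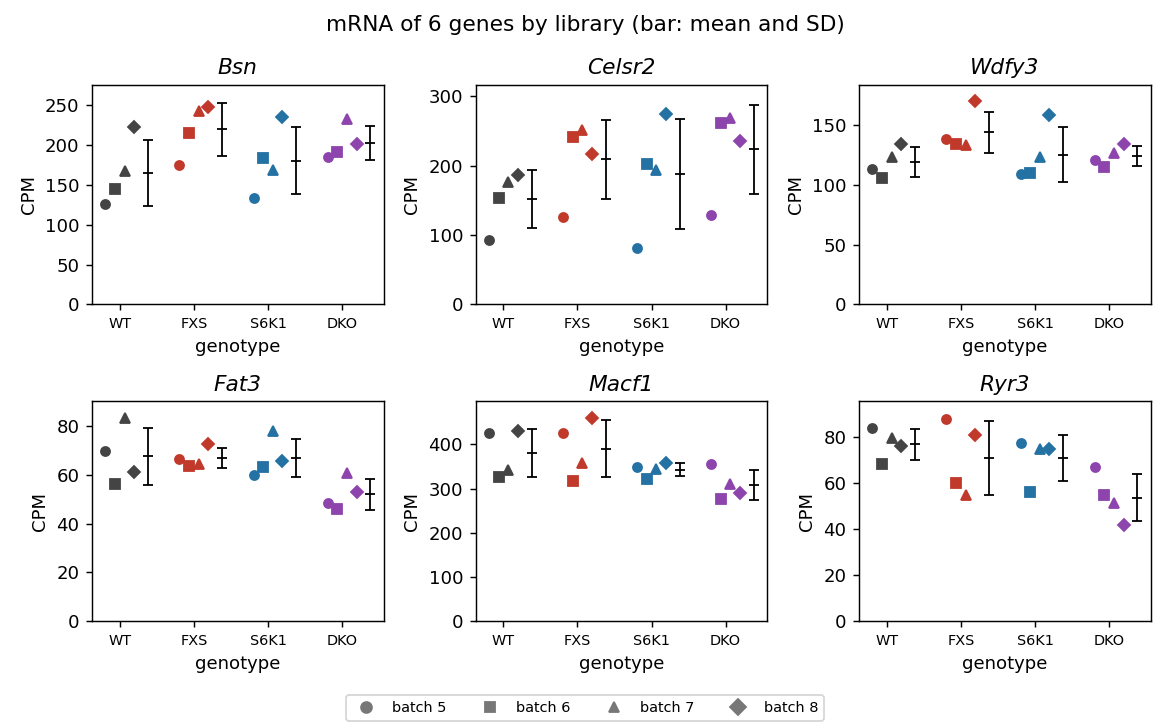
mRNA level (CPM) of Bsn, Celsr2, Wdfy3, Fat3, Macf1 and Ryr3 in each library by genotype, with the batch as the symbol and the mean and SD as a bar. Bsn and Celsr2 stand higher in FXS and DKO than in WT within batches (except Bsn in DKO of batch 8), and Fat3 and Macf1 lower in DKO than in WT in every batch.

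The same question was put to the loss of Rps6kb1 alone, in S6K1 against WT. The levels of the 47 genes differed little: the median was 0.01 in mRNA (0.00 over all tested genes), -0.05 in footprints (-0.02) and -0.06 in TE (-0.02). No member was called in mRNA (0.0211% of all tested genes), footprints (0.00717%) or TE (0.0293%) with edgeR. DESeq2 called 0 as well (0.0422%, 0.311% and 0.0879% of the genes it gave an adjusted p). At an unadjusted p under 0.05 there were 4 in mRNA, 2 in each direction, against 7.37% of all tested genes, 9 in footprints (8.74%), 2 higher and 7 lower, and 3 in TE (7.51%). Without the batch term the medians were 0.13 in footprints and 0.12 in TE, so their direction depended on it. Within batches 2 and 3 the footprint median was -0.18 and -0.08, with 33 and 27 genes below 0. In mRNA it was -0.13, 0.03, -0.01 and 0.11 in batches 5 to 8, with 7, 27, 22 and 34 genes above 0.

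The smallest p in mRNA belonged to Nbea (0.20 ± 0.0655 (SE, adjusted p 0.568)), Vps13c (-0.19 ± 0.0807 (SE, adjusted p 0.651)) and Sptbn1 (-0.15 ± 0.0690 (SE, adjusted p 0.671)). In footprints it was Ank3, the ankyrin of the axon initial segment. Ank3 footprints stood at 331, 317, 226 and 225 CPM in the WT libraries, 289, 229.9, 260.2, 223 and 202 in FXS, 227, 232 and 247 in S6K1 and 266, 261 and 211 in DKO. The WT libraries split by batch into a high and a low pair, and the S6K1 libraries, of batches 1 to 3, all lay close to the low pair. Ank3 differed by -0.38 ± 0.0959 (SE, adjusted p 0.285), Vps13b by -0.29 ± 0.0866 (SE, adjusted p 0.319), with the other sign, 0.16, without the batch term, and Fat1 by 0.44 ± 0.152 (SE, adjusted p 0.404). In TE, Ank3 differed by -0.34 ± 0.115 (SE, adjusted p 0.537), Nbea by -0.26 ± 0.105 (SE, adjusted p 0.595) and Fat4 by 0.32 ± 0.149 (SE, adjusted p 0.637).

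DKO against WT asks what differs when both genes are lost. In mRNA 7 of the 47 were called, 2 higher (Celsr2 and Bsn) and 5 lower (Fat3, Ryr3, Macf1, Ryr2 and Vps13c), against 5.23% of all tested genes called. The median over the 47 was -0.03 in mRNA (-0.00 over all), -0.05 in footprints (-0.01) and 0.04 in TE (-0.02). Within batches 5 to 8 the mRNA median was -0.07, 0.03, -0.13 and -0.14. Within batches 3 and 4 the footprint median was 0.05 and -0.07. Footprints gave 0 calls (0.366%) and TE gave 1, Celsr2 (4.85%). DESeq2 called 2 in footprints (2.25% of the genes it gave an adjusted p), 3 in TE (9.25%) and 9 in mRNA (9.29%). At an unadjusted p under 0.05, 4 were higher (12.2%) and 13 lower (10.2%) in mRNA, 2 higher (7.50%) and 7 lower (9.56%) in footprints, and 4 higher (10.3%) and 6 lower (14.6%) in TE. The TE counts are near the background of all genes. The mRNA calls numbered 0 without the batch term, 0 without WT mRNA replicate 3, 2 without batch 5 and 9 without WT mRNA replicate 4. Over all genes the calls of these fits were 2, 161, 480 and 1093, against 743.

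Celsr2 mRNA rose in DKO by 0.55 ± 0.119 (SE, adjusted p 0.0185) and Bsn mRNA by 0.32 ± 0.0941 (SE, adjusted p 0.0489). Neither call was stable: of 8 fits that left out a library, Celsr2 mRNA was called in 3 and Bsn mRNA in 2. Within batches 5 to 8 the Celsr2 difference was 0.48, 0.78, 0.61 and 0.33, and that of Bsn was 0.55, 0.40, 0.47 and -0.14. Celsr2 footprints stood at 326, 311, 222 and 229 CPM in the WT libraries, 305, 352, 189.9, 267 and 215 in FXS, 213, 366 and 262 in S6K1 and 198, 185 and 207 in DKO. All 3 DKO libraries lay below all 4 WT libraries. Celsr2 TE fell, at -0.84 ± 0.206 (SE, adjusted p 0.0285), and its footprint difference alone was -0.29 ± 0.147 (SE, adjusted p 0.326). The adjusted p of Celsr2 TE ran from 0.00339 to 0.171 over its alternatives, and it was called in 8 of 15 fits that left out a library. Bsn TE stood at -0.57 ± 0.210 (SE), with the same sign.

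The 5 called lower share no role: Fat3 is a cadherin, Macf1 a spectraplakin, Ryr2 and Ryr3 release calcium from the endoplasmic reticulum, and Vps13c transfers lipids. Fat3 mRNA stood at 69.8, 56.4, 83.1 and 61.3 CPM in the WT libraries, 66.5, 63.7, 64.5 and 72.6 in FXS, 60.1, 63.3, 78.0 and 65.5 in S6K1 and 48.5, 46.1, 60.6 and 53.1 in DKO. DKO was below WT in each batch, at log2 differences of -0.52, -0.29, -0.45 and -0.21. Fat3 mRNA fell, at -0.37 ± 0.0840 (SE, adjusted p 0.0144). Macf1 mRNA stood at 426, 327, 342 and 429 CPM in the WT libraries, 426, 318, 357 and 459.5 in FXS, 349, 321, 344 and 357 in S6K1 and 356, 277, 310.4 and 289 in DKO. DKO was the lowest genotype in batches 6, 7 and 8. Macf1 mRNA fell, at -0.30 ± 0.0755 (SE, adjusted p 0.0240).

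Ryr3 mRNA stood at 83.9, 68.1, 79.6 and 76.0 CPM in the WT libraries, 87.8, 60.0, 54.9 and 80.9 in FXS, 77.6, 56.0, 74.7 and 74.9 in S6K1 and 66.8, 54.6, 51.1 and 41.9 in DKO. The DKO libraries lay below all WT libraries, and FXS libraries spread over both. Ryr3 mRNA fell, at -0.52 ± 0.121 (SE, adjusted p 0.0225), Ryr2 at -0.30 ± 0.0809 (SE, adjusted p 0.0344) and Vps13c at -0.29 ± 0.0806 (SE, adjusted p 0.0364). Their footprint differences were -0.11 for Fat3, -0.25 for Macf1, -0.20 for Ryr2, 0.01 for Ryr3 and -0.07 for Vps13c, with SE from 0.0864 to 0.167. TE was not called for any of them. Of 8 fits that left out a library, Fat3 and Ryr3 mRNA were called in 5 each, Macf1 and Ryr2 in 2 each and Vps13c in 1.

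The smallest p in DKO footprints belonged to Csmd2 (-0.51 ± 0.118 (SE, adjusted p 0.0783)), Tenm4 (-0.40 ± 0.108 (SE, adjusted p 0.113)) and Pkd1 (-0.48 ± 0.147 (SE, adjusted p 0.147)). Tenm4 footprints stood at 83.9, 83.9, 80.9 and 67.4 CPM in the WT libraries, 90.3, 88.3, 62.9, 71.4 and 60.8 in FXS, 88.2, 86.9 and 73.3 in S6K1 and 66.8, 63.2 and 53.4 in DKO. All DKO libraries lay below the lowest WT library, if narrowly. In TE, Tenm4 stood at -0.51 ± 0.156 (SE, adjusted p 0.0525) and Csmd2 at -0.53 ± 0.174 (SE, adjusted p 0.0700), next to Celsr2. The 10 oligodendrocyte markers summed to 1922 to 2721 footprint CPM in DKO, below every WT library, with 4 called lower. Blood markers summed to 668 to 991 mRNA CPM in DKO, below every WT library, with 0 of 4 called. Excitatory neuron markers had a median TE difference of -0.50 with 2 of 6 called lower, and 3 of 6 were called higher in mRNA. Their part in these values was not tested.

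**Figure D5:**
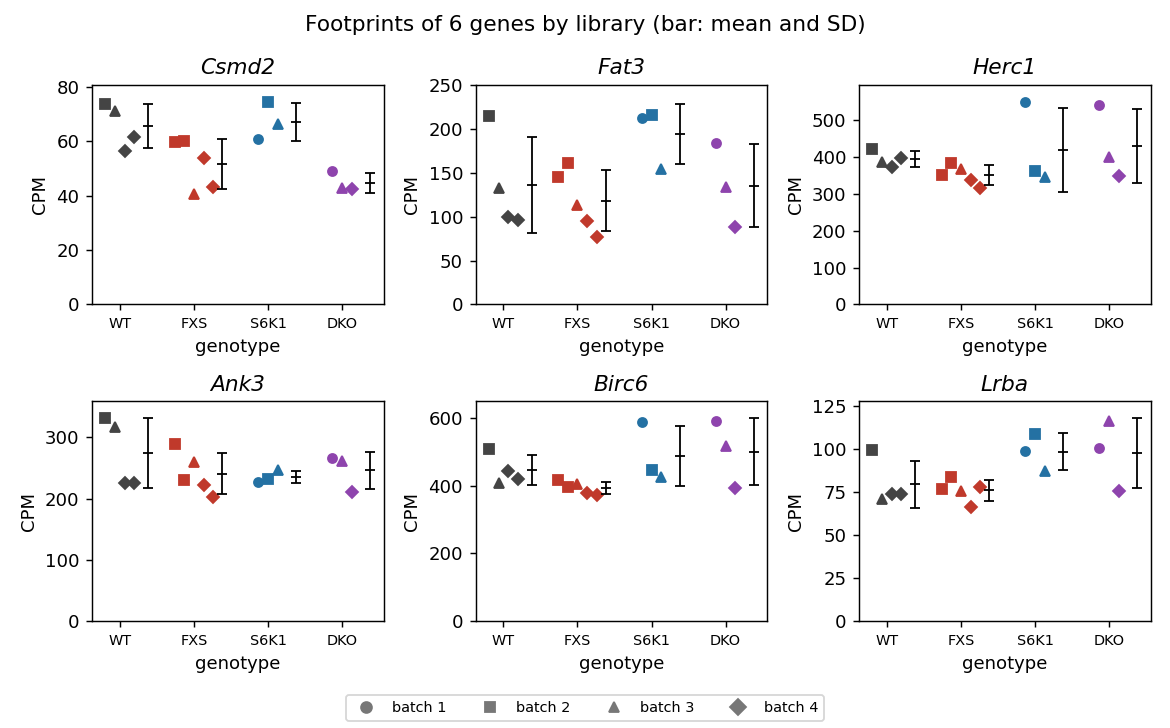
Footprint level (CPM) of Csmd2, Fat3, Herc1, Ank3, Birc6 and Lrba in each library by genotype, with the batch as the symbol and the mean and SD as a bar. Csmd2 is lower in all 3 DKO libraries than in all 4 WT libraries, while Fat3, Birc6 and Lrba show values that differ by batch within a genotype.

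DKO against FXS is the direct test of whether the loss of Rps6kb1 moves the FXS values back. No member was called in any measure with edgeR. The estimates ran opposite to those of FXS against WT, and these 2 comparisons share the FXS libraries, so a high or low FXS library moves both. The median was -0.18 in mRNA (0.01 over all tested genes), 0.08 in footprints (-0.01) and 0.28 in TE (-0.01). mRNA was below 0 for 46 genes, Celsr2 being the exception, footprints were above 0 for 33 and TE for 40. Of all tested genes, 51.5% were above 0 in mRNA, 48.2% in footprints and 47.5% in TE. The mRNA part was the larger in 30 of the 47.

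With an adjusted p under 0.05, 0 were called in mRNA (0.0281% of all tested genes), 0 in footprints (0.0143%) and 0 in TE (0.0146%). DESeq2 called 5, 0 and 1 (0.215%, 0.0717% and 0.123% of the genes it gave an adjusted p, in TE 7301 of 13654). At an unadjusted p under 0.05, 0 were higher (5.21%) and 29 lower (4.59%) in mRNA. In TE 24 were higher (4.45%) and 0 lower (3.90%). In footprints only 3 were higher (2.76%) and 1 lower (3.43%). Without DKO footprint replicate 2 the footprint count was 0, the TE count 10 and the footprint median 0.01, and without DKO mRNA replicate 4 the mRNA count was 14.

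Within batches 5 to 8 the mRNA median was -0.14, -0.12, -0.15 and -0.37. Footprints can be compared within batches 3 and 4, where the median was 0.12 and -0.01, with 35 and 21 of the 47 genes above 0. The mRNA side of the difference was thus present in every batch, and the footprint side in 1 of 2.

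By role, mRNA was lower at an unadjusted p under 0.05 for 8 of 10 cytoskeletal genes, 7 of 8 ubiquitin enzymes and 4 of 4 VPS13 genes, but for only 4 of 13 adhesion and extracellular genes. Fat3 (-0.37 ± 0.0837 (SE, adjusted p 0.162)), Macf1 (-0.33 ± 0.0754 (SE, adjusted p 0.162)) and Vps13c (-0.34 ± 0.0802 (SE, adjusted p 0.178)) had the smallest p. TE was higher for 7 of 8 ubiquitin enzymes, 5 of 10 cytoskeletal genes and 3 of 4 VPS13 genes at that threshold, and for 3 of 13 adhesion and extracellular genes. The difference between these classes was not tested.

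The smallest p in TE belonged to Fat3 (0.56 ± 0.131 (SE, adjusted p 0.347)), Birc6, an inhibitor of apoptosis with ubiquitin ligase activity (0.42 ± 0.121 (SE, adjusted p 0.483)), and Pclo (0.77 ± 0.227 (SE, adjusted p 0.492)). Birc6 footprints stood at 508, 408, 444 and 421 CPM in the WT libraries, 417, 395, 406, 378 and 374 in FXS, 588, 447 and 425 in S6K1 and 592, 517 and 394 in DKO. DKO replicates 1 and 2 stood above all FXS libraries, and DKO replicate 3, of batch 4, stood among them. Pclo footprints stood at 409, 229, 136 and 161 CPM in the WT libraries, 261, 406, 215, 202 and 159.8 in FXS, 320.0, 341 and 194 in S6K1 and 476, 442 and 168 in DKO. Pclo ranged from 168 to 476 CPM within DKO and from 136 to 409 within WT, so the groups overlap widely. Without DKO footprint replicate 2 the Pclo TE estimate was 0.44 and without DKO footprint replicate 3 it was 1.11.

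In footprints the smallest p belonged to Lrba (0.39 ± 0.121 (SE, adjusted p 0.762)), Birc6 (0.22 ± 0.0869 (SE, adjusted p 0.762)) and, in the other direction, Tenm4 (-0.26 ± 0.107 (SE, adjusted p 0.762)). Lrba footprints stood at 99.9, 71.0, 73.9 and 73.9 CPM in the WT libraries, 76.8, 83.8, 75.6, 66.4 and 78.1 in FXS, 99.3, 109 and 87.4 in S6K1 and 101, 116 and 76.0 in DKO. The highest was DKO replicate 2, and without it the Lrba estimate was 0.18. The genes that differed most in FXS against WT did not all run back. Bsn TE was 0.14 ± 0.208 (SE) and Celsr2 TE -0.25 ± 0.204 (SE) in DKO against FXS, Csmd2 TE -0.01 ± 0.172 (SE) and Csmd2 footprints -0.10 ± 0.117 (SE). Wdfy3 TE was 0.28 ± 0.103 (SE), of which mRNA gave -0.21 and footprints 0.07, and Herc1 TE 0.28 ± 0.106 (SE).

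Whether losing Fmr1 has a different effect without S6K1 than with it was tested as an interaction. With edgeR 0 of the 47 were called in mRNA (0% of all tested genes), 0 in footprints (0% of all tested genes) and 0 in TE (0%). At an unadjusted p under 0.05, 12 had an interaction below 0 in mRNA (1.65%), 10 above 0 in footprints (1.30%) and 17 in TE (2.36%). The estimate was below 0 for 47 of 47 genes in mRNA, with a median of -0.18, while 50.6% of all tested genes were above 0. The medians were 0.11 in footprints and 0.31 in TE. Over all tested genes the medians were 0.00 in mRNA, 0.01 in footprints and 0.01 in TE. Since the 47 genes were measured in the same libraries, their signs are not separate results. The smallest unadjusted p in TE was that of Ank3 (0.54 ± 0.154 (SE, adjusted p 1.000)), whose TE was -0.35 in FXS, -0.34 in S6K1 and -0.14 in DKO, all against WT.

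Genes with a long genomic span outside the list were set beside it, a comparison added after the data were seen. Among 481 other tested genes that span more than 300 kb, the median TE difference in FXS against WT was -0.10, against -0.21 for the 24 listed genes of that span. Among 1581 others of 100 to 300 kb it was -0.06, against -0.22 for 15 listed genes, and among 3751 others of 30 to 100 kb it was -0.01, against -0.36 for 6 listed genes. The 2 listed genes of 10 to 30 kb had a median of -0.43, against 0.01. In mRNA the others over 300 kb stood at 0.06 and the listed genes of that span at 0.08, nearly the same, with 0.03 and 0.11 from 100 to 300 kb and 0.00 and 0.21 from 30 to 100 kb. In DKO against FXS the TE medians were 0.01 and 0.22 over 300 kb, 0.06 and 0.29 from 100 to 300 kb, 0.05 and 0.24 from 30 to 100 kb, and -0.02 and 0.00 from 10 to 30 kb, others first. Over all genes with a span, listed or not, Spearman's rho between span and log2 difference was 0.15 in mRNA (13512 genes) and -0.08 in TE (12994 genes) for FXS against WT, and -0.27 and 0.30 for DKO against FXS, as a description across genes. No test was made of the difference between the listed genes and the others.

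The authors' deposited tables list all 47 genes for FXS and DKO against WT. In the authors' deposited table of FXS mRNA, 5 of the 47 have an adjusted p under 0.05 (1.45% of the genes listed), all higher: Bsn (0.00228), Celsr2 (0.00390), Wdfy3 (0.0110), Sptan1 (0.0113) and Nbea (0.0257). In the authors' deposited table of FXS footprints, Csmd2 (0.0157) and Fat3 (0.0474) are lower (1.07%). The authors' deposited table for TE calls 0 of the 47 in FXS (0.0167%) and 0 in DKO (0.725%), with medians of -0.25 and 0.07. For DKO, the authors' deposited tables have 2 genes higher and 7 lower in mRNA (8.12%) and 2 lower in footprints (2.47%), Csmd2 and Tenm4.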

How the data were processed

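The deposited tables hold whole-number counts per gene symbol made by the authors, 1 column per library. The submitters' processing notes name cutadapt 2.0, Bowtie2, TopHat2, RSEM and the build mm10, with no role given for each, and the counting step is not given in the sources used here. The authors' 6 deposited comparison tables give log2 fold changes with standard errors and p-values, raw and adjusted, per the file headers, and are quoted only where named.

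The tests on the counts used edgeR 4.0.16 in R 4.3.3, with its robust quasi-likelihood F-test, after filterByExpr and TMM scaling within each assay. All genotypes were fitted together with batch as a term. TE was the footprint contrast minus the mRNA contrast in 1 model, batch nested in assay, on genes passing in both. Adjusted p-values are Benjamini-Hochberg over all genes of a test, and a call means an adjusted p under 0.05. CPM values carry TMM scaling. The script was tested on simulated counts. DESeq2 1.42.0, RLE factors, no filter, no batch term, only the genotypes compared, mRNA without batch 5 and each library left out were alternatives. Replicate columns of 1 genotype differed by more than sampling noise, with a chi-square per degree of freedom of at least 4.67.

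The 47 genes, the role classes and the marker lists were chosen with earlier results of these data known. The genes named were those called in each measure and comparison, or the 3 of smallest p where fewer than 3 were called, and the 3 of highest and of lowest WT TE. Others in the text illustrate a class and were chosen after their values were seen. A trend over coding length, a list of all genes over that length, and levels per kb of coding length were planned and not run, since coding lengths were not used here, and genomic spans from RefSeq (GRCm38.p6) were used instead.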

Additional observations from a re-analysis of the deposited data

Results flagged for a closer look

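In 110 groups of named genes (18 genes in mRNA and 16 in footprints), 8 had a library far from the others of its group by Dixon's criterion, and chance flags about 1 in 20 groups. Of the 8, 4 came from WT footprint replicate 1, of batch 2. It was the highest of the 4 WT libraries for Bsn (599 CPM against 333 to 376), Fat4 (33.3 against 21.8 to 22.9), Lrba (99.9 against 71.0 to 73.9) and Nbea (812 against 627 to 654). No other WT footprint library came from batch 2, so the library and the batch cannot be told apart within WT. Its part in the FXS comparison is given by the fits without it.

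In mRNA, S6K1 replicate 2 was the lowest of its group for Ank3 (107 CPM against 115 to 116) and for Ryr3 (56.0 against 74.7 to 77.6). S6K1 replicate 4 was the highest for Vps13c (66.8 against 54.6 to 56.3), and FXS replicate 4 the highest for Wdfy3 (170.2 against 134 to 139).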

How the results depend on the processing

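The SD between libraries (0.13 in mRNA, 0.20 in footprints and 0.24 in TE, batches included) is as large as most of the 12 medians over the 47 genes, so moves under 1 SD, as in all 194 alternatives, say little. Of these, 16 had the other sign, all in S6K1 or DKO against WT, among them footprints and TE of S6K1 without the batch term (0.13 and 0.12). The medians of FXS against WT and of DKO against FXS had the same sign in every alternative run. Counts were less stable. Without the batch term the unadjusted counts were 6 (FXS mRNA, higher), 1 (FXS footprints, lower), 2 (FXS TE, lower), 12 (DKO against FXS mRNA, lower) and 9 (DKO against FXS TE, higher), and the calls in DKO against WT were 0 in mRNA and 0 in TE. Calls over all tested genes fell too without that term. In FXS they went from 22 to 2 in mRNA, from 23 to 1 in footprints and from 13 to 1 in TE. In DKO against WT they went from 743 to 2 in mRNA and from 662 to 2 in TE. DESeq2 called 6 in FXS mRNA, 1 in FXS footprints, 4 in FXS TE, 2 in DKO footprints, 3 in DKO TE, 5 in DKO against FXS mRNA and 1 in DKO against FXS TE, with 5 at an unadjusted p in DKO against FXS footprints. With only the genotypes compared, FXS mRNA had 9 calls (3.20% of all genes) and 21 at an unadjusted p, and DKO TE 2 calls (2.86%). Without the mRNA libraries of batch 5, DKO against WT had 2 calls in mRNA (3.38% of all genes) and 2 in TE (2.51%).

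With 1 library left out, calls ran from 0 to 1 in FXS mRNA, 0 to 2 in FXS TE, 0 to 9 in DKO mRNA, 0 to 4 in DKO TE (4 without WT footprint replicate 1, and 0 without WT or DKO footprint replicate 2 and without some mRNA libraries) and 0 to 1 in DKO against FXS mRNA. Over all tested genes, DKO TE calls were 17 (0.125%) and 8 (0.0583%) without WT and DKO footprint replicate 2. They were 1032 (7.56%) without WT footprint replicate 1, against 662 (4.85%) in the main fit. DKO mRNA calls over all genes were 161 (1.13%) without WT mRNA replicate 3 and 1093 (7.64%) without WT mRNA replicate 4. A fit with the highest count of the 47 called 0.217% of all genes in FXS mRNA, 0.242% in FXS TE and 0.0280% in DKO against FXS mRNA. Unadjusted counts ran from 10 to 16 (FXS mRNA), 8 to 17 (FXS footprints), 13 to 26 (FXS TE), 14 to 28 (DKO against FXS mRNA), 0 to 7 (DKO against FXS footprints) and 10 to 29 (DKO against FXS TE). Unadjusted shares over all genes were not computed for the alternative fits. Whether the unadjusted counts of the 47 moved more than those of all genes was therefore not tested. Of 638 alternative values for 40 gene results, 59 lost the call and 27 gained it. Only the 7 mRNA calls and the 1 TE call of DKO against WT could be lost, so 638 is not the base for the 59. Fat3 mRNA, for example, kept its call in 5 of 8 fits that left out a library and in 4 of 6 other settings. Bsn mRNA kept it in 2 of 8 and 1 of 6. In direction 1 value reversed: Vps13b footprints in S6K1 stood at 0.16 without the batch term. The cause was not tested. No paired analysis was possible because the labels carry no replicate numbers to pair by. The batch term takes that place in mRNA, where each batch holds every genotype once, and the fit without it is given above. DESeq2 was not run for the interaction. The fewest counts of any of the 47 in a library were 204 in mRNA and 163 in footprints, so counting error was small beside the spread between libraries.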
